A study of Homo sapiens with 6 samples.

Results

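The miRNAs miR-221-3p and miR-222-3p, listed as hsa-miR-221-3p and hsa-miR-222-3p, were followed in small-RNA libraries of exosomes from HCT116, an established line of human colorectal carcinoma cells. They were chosen by name, as the 3p products of the hairpin genes MIR221 and MIR222, and are 2 of the 2588 miRNA entries in the deposited tables. One group of cells had received a control siRNA (siCTL) and the other an siRNA against PRDX3 (siPRDX3), which encodes a mitochondrial peroxiredoxin. Both groups were microporated 40 h before they were moved to medium with nanoparticle-depleted serum, and exosomes were collected over 24 h. Each group has 3 libraries, called siCTL 1 to 3 and siPRDX3 1 to 3 after their titles. No source says whether they came from separate cultures. The p-values therefore set a difference between groups only against the spread among these libraries, and that spread may be technical. The series' design text also names a different siRNA and endothelial cells, which goes against the titles and the labelled cell line, and the titles were followed. PRDX3 mRNA is not measured in miRNA libraries, so the knockdown was not checked here.

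Members of this family are cut from a shared primary transcript, loaded into Argonaute proteins and guided to messenger RNAs mainly by the seed, bases 2 to 8 of the mature strand. miR-221 and miR-222 have the same seed and repress the same messages. The best known are CDKN1B, which encodes the cyclin-dependent kinase inhibitor p27, and KIT, a receptor tyrosine kinase. Both miRNAs are raised in many carcinomas and are also abundant in endothelium and vascular smooth muscle.

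The mature sequences are shown because the shared seed is what joins the pair, and because the bases after it are what allows reads of one to be told from reads of the other. They are RefSeq sequences on GRCh38.p14, written 5′ to 3′ with the seed in capitals.
miR-221-3p: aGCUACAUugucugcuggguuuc
miR-222-3p: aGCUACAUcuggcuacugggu
The first 8 bases are identical. Position by position without gaps, 11 of the 21 bases of miR-222-3p match miR-221-3p, which has 23. With gaps allowed, 18 of the 21 occur in the same order in miR-221-3p. Of the 2588 deposited entries 2281 matched a RefSeq mature sequence by name, and the 2 members were the only ones among them with this seed.

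Both hairpins lie on the minus strand of chromosome X, MIR221 at 45746157 to 45746266 and MIR222 at 45747015 to 45747124, with 748 bases between them. In GENCODE v29 on GRCh38 they fall in the intron of the longer of the 2 transcripts of MIR222HG, a long non-coding RNA gene that spans 45745211 to 45770274. The hairpins are shown, with the 3p strand in capitals, since they are the units from which the mature strands are cut.
MIR221: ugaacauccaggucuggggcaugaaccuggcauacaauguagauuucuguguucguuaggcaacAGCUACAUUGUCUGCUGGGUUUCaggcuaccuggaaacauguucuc
MIR222: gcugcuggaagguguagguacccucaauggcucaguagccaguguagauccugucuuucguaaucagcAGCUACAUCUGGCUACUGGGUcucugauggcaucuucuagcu

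The seed pairs with the letters ATGTAGC in a message. In GENCODE v29 transcripts these letters occur 2 times in the 3′ UTR of CDKN1B, which is 1344 bases long, and 2 times in that of KIT, with 2158 bases, and each is followed by an A. They are shown, with the match in capitals, so that the seed can be set against the messages of its best-described targets.
CDKN1B site 1, chr12:12721217-12721240, plus strand: aaaagcgttggATGTAGCattatg
CDKN1B site 2, chr12:12721290-12721313, plus strand: ttttaccttttATGTAGCacataa
KIT site 1, chr4:54739576-54739599, plus strand: tttggattcttATGTAGCaggaaa
KIT site 2, chr4:54740505-54740528, plus strand: taaatattgaaATGTAGCaataat
Only the message strand was searched. Among 8274 windows of 1344 bases from the start of protein-coding 3′ UTRs, 6.45% held the letters at least once and 0.278% at least 2 times. Among 5351 windows of 2158 bases the shares were 10.4% and 0.691%. A match is a description of the sequence, and messages were not measured in these libraries.

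Reads recovered for all entries numbered 40146, 80950 and 124735 for the siCTL libraries and 230946, 96660 and 70678 for the siPRDX3 libraries, as taken from the deposited log2 values. Of the 2588 entries 686 had a read in any library, and 80, both members among them, had enough reads to be tested. A single entry, miR-4451, took from 11.8% of reads in siPRDX3 1 to 76.9% in siCTL 2. In siCTL 1 and siCTL 2, 30 and 23 of the 80 tested miRNAs were at 0 reads, both members among them. Results are therefore given with and without these libraries. Entries with reads numbered 137 and 190 there, against 356 in siCTL 3 and 334, 215 and 272 in siPRDX3 1, 2 and 3. Markers of colon epithelium were sparse in most libraries: the 6 listed miRNAs together took 0.00618% to 1.01% of reads in siCTL and 0.0114% to 0.463% in siPRDX3. The erythrocyte markers miR-451a and miR-486-5p took 3.96% to 5.43% in siCTL and 1.05% to 3.46% in siPRDX3, with miR-144-3p at 0. The hepatocyte marker miR-122-5p took 0.0593% to 5.35% and 2.44% to 9.63%.

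Both cluster mates were absent from siCTL 1 and siCTL 2 and present in siCTL 3, so the control group itself ran from no reads to the highest miR-222-3p level of the series. miR-222-3p had reads in all 3 siPRDX3 libraries, and miR-221-3p in 2 of them. Neither mate differed between the groups beyond the spread of the libraries.

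For miR-221-3p, siCTL 1, 2 and 3 held 0, 0 and 216 reads and siPRDX3 1, 2 and 3 held 36, 0 and 186. As shares of all miRNA reads, siCTL 3 stood at 0.173% (95% Clopper-Pearson interval 0.151 to 0.198), siPRDX3 1 at 0.0156% (0.0109 to 0.0216) and siPRDX3 3 at 0.263% (0.227 to 0.304). The 3 intervals do not overlap, so the libraries that hold miR-221-3p differed among themselves by more than counting error. The count of 0 allows shares of up to 0.00747% in siCTL 1, 0.00371% in siCTL 2 and 0.00310% in siPRDX3 2 (3 reads of the total). Intervals and limits cover counting error only, because reads copied by PCR and not tagged by molecule are not independent. The groups overlapped: the siCTL library with reads lay between the highest and the lowest siPRDX3 library.

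For miR-222-3p, the siCTL libraries held 0, 0 and 316 reads and the siPRDX3 libraries 413, 87 and 57, in the same order. Its share was 0.253% in siCTL 3 (0.226 to 0.283), 0.179% in siPRDX3 1 (0.162 to 0.197), 0.0900% in siPRDX3 2 (0.0721 to 0.111) and 0.0806% in siPRDX3 3 (0.0611 to 0.104). The highest library was a control, and all 3 siPRDX3 libraries lay below it and above the other 2 controls. siPRDX3 2 and siPRDX3 3 could not be told apart by their intervals.

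The 0 counts were compared with what the depth of each library allowed. At the share of siCTL 3, miR-222-3p would have had 102 reads in siCTL 1 and 205 in siCTL 2, and miR-221-3p 69.5 and 140. With miR-4451 left out of the totals, the corresponding numbers were 61.5 and 56.7 reads for miR-222-3p and 42.1 and 38.8 for miR-221-3p. At the lowest share above 0 instead, also without miR-4451, they were 27.3 and 25.1 reads for miR-222-3p (share of siPRDX3 3) and 3.59 and 3.31 for miR-221-3p (share of siPRDX3 1). Over all reads, the share of siPRDX3 1 would have given 6.26 and 12.6 reads of miR-221-3p in siCTL 1 and siCTL 2. Without miR-4451 the expected reads of miR-221-3p lay only just above the limit of 3 reads. On those totals a share somewhat lower than that of siPRDX3 1 could not be told from absence. In bulk exosome RNA, fewer vesicles that carry a miRNA and fewer copies in each vesicle cannot be told apart.

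Leaving miR-4451 out brought the 4 libraries with miR-222-3p closer together. Their shares became 0.303% in siCTL 3, 0.203% in siPRDX3 1, 0.172% in siPRDX3 2 and 0.134% in siPRDX3 3, so the highest was 2.26-fold the lowest, against 3.14-fold over all reads. The shares of miR-221-3p moved further apart, to 0.207% in siCTL 3, 0.0177% in siPRDX3 1 and 0.438% in siPRDX3 3. Its highest share was 24.8-fold its lowest share above 0. It was 73.8-fold the share in siPRDX3 2 taken at its limit of 3 reads, with the highest share taken as exact. Among the 4 libraries, miR-222-3p thus spanned a narrow range and miR-221-3p a wide one.

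**Figure D1:**
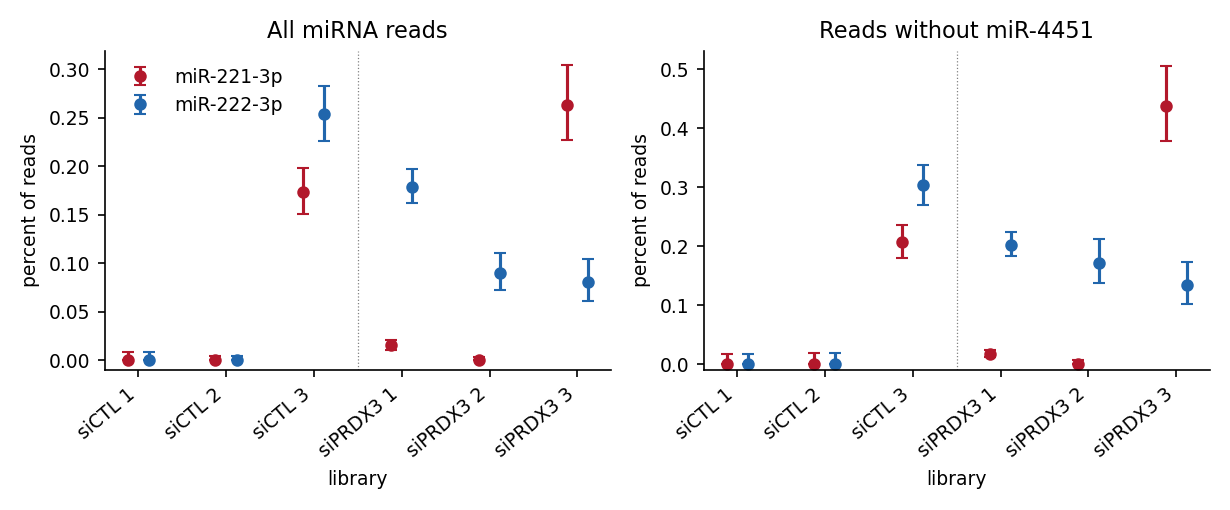
Share of miRNA reads (percent, vertical axis) taken by miR-221-3p (red) and miR-222-3p (blue) in each of the 6 libraries, over all miRNA reads (left) and without miR-4451 (right); bars are exact 95% Clopper-Pearson intervals. siCTL 1 and siCTL 2 are at 0 for both, and miR-221-3p alone is at 0 in siPRDX3 2.

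By group, the share of miR-221-3p was 0.0577% ± 0.09998 for siCTL against 0.0929% ± 0.148 for siPRDX3 (SD over n = 3 libraries each; two-sided exact permutation test, p = 0.7). For miR-222-3p it was 0.0844% ± 0.146 against 0.116% ± 0.0542 (exact permutation p = 0.6). The 2 together took 0.142% ± 0.246 and 0.209% ± 0.128 (exact permutation p = 0.6). Without miR-4451 in the totals, siPRDX3 minus siCTL went from 0.0352 to 0.0829 percentage points for miR-221-3p, from 0.0320 to 0.0688 for miR-222-3p and from 0.0672 to 0.152 for both (exact permutation p = 0.7, 0.4 and 0.5). Over all reads, adjusted over these 3 measures every p was 0.7, and 3 libraries against 3 cannot give an exact p below 0.1. The SD within siCTL was larger than the difference between the groups for all 3 measures. The direction also rested on single libraries: siPRDX3 minus siCTL, the combined share differed by 0.0672 percentage points with all 6 and by −0.00384 once siCTL 1 or siCTL 2 was left out.

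On the deposited log2 scale, on which a miRNA without reads is at 0, miR-222-3p stood at 0, 0 and 11.30 in siCTL 1, 2 and 3 and at 10.26, 9.27 and 8.58 in siPRDX3 1, 2 and 3. miR-221-3p stood at 0, 0 and 10.75 in siCTL and at 6.76, 0 and 10.29 in siPRDX3. A single read is worth 4.70 on this scale in siCTL 1 and 1.99 in siPRDX3 1, so the gap between 0 and a low count depends on the library. The group means were 3.77 ± 6.52 and 9.37 ± 0.84 for miR-222-3p and 3.58 ± 6.21 and 5.68 ± 5.23 for miR-221-3p (SD, n = 3 each). The siPRDX3 levels of miR-222-3p lay closer together than its control levels, which were split into absent and abundant.

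miR-222-3p had a log2 fold change of 5.61 (siPRDX3 over siCTL, SE 3.27, 95% interval −2.08 to 13.29; limma adjusted p = 0.504). miR-221-3p had 2.10 (SE 4.08, −7.50 to 11.69; limma adjusted p = 0.776). Both intervals include 0 and reach far on either side, so large changes in either direction remain within them. Of the 80 miRNAs tested, 0% passed an adjusted p of 0.05 by limma, 7.5% had an unadjusted p under 0.05, and 16.2% had log2 levels that did not overlap between the groups. Neither member was among these. The median log2 fold change of all 80 was 1.72, which miR-221-3p barely exceeded, and 12 of them lay above miR-222-3p. Under library totals that median was 2.57, with miR-221-3p at 2.63 and miR-222-3p at 6.32. Both were smaller under 2 other settings: limma-voom with TMM factors gave 0.59 and 3.51, and a pseudocount of 25 gave 0.65 and 2.56.

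The fold changes turned on which control libraries were used. Without siCTL 3, the 1 control with reads, miR-222-3p passed the test at 9.37 (SE 1.52; limma adjusted p = 0.00721). So did 25% of the 80 miRNAs, with 23.8% of the 80 passing as higher in siPRDX3. miR-221-3p stood at 5.68 (SE 4.23; limma adjusted p = 0.327). The filter had been applied over all 6 libraries, and with siCTL 3 dropped miR-222-3p meets it only through siPRDX3. Entries limited to siCTL 1 and siCTL 2 could not be tested, so the pass of miR-222-3p is not support for a difference. Without siCTL 1 and siCTL 2, leaving a single control assumed to vary like the siPRDX3 libraries, miR-222-3p stood at −1.93 (SE 1.83) and miR-221-3p at −5.07 (SE 4.05), with a limma adjusted p of 0.797 for both. In that comparison 0% of the 80 passed, and 37 of the 51 miRNAs with fold changes above 0 in all 6 libraries lay below 0. Without siPRDX3 3, miR-221-3p was at −0.21 (SE 4.80; limma adjusted p = 0.991). The cluster thus had no direction that held over the choice of libraries.

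**Figure D2:**
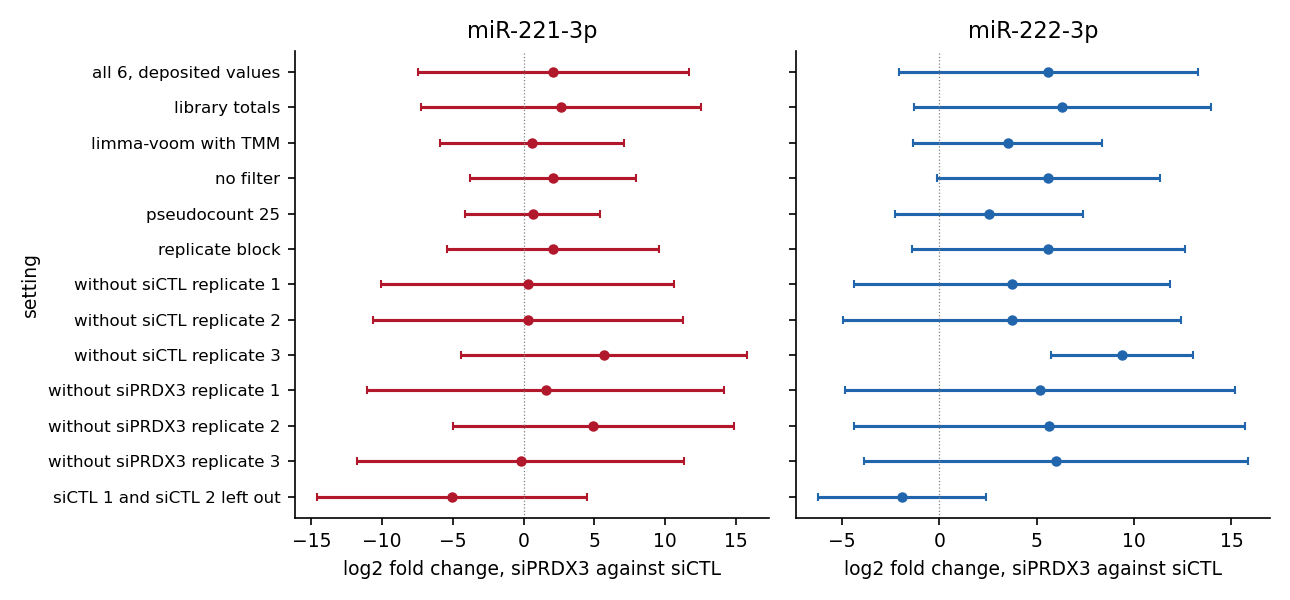
Log2 fold change of miR-221-3p (left) and miR-222-3p (right), siPRDX3 against siCTL, with 95% intervals (horizontal axis, log2), for all 6 libraries and for each alternative processing or left-out library. Only miR-222-3p without siCTL 3 has an interval clear of 0 with an adjusted p under 0.05, and both mates lie below 0 when siCTL 1 and siCTL 2 are left out.

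The ratio of the mates within a library does not depend on the scaling between libraries. It was taken in the 4 libraries with at least 10 reads of the pair. In siCTL 3 miR-222-3p made up 59.4% of the pair's 532 reads (95% Clopper-Pearson interval 55.1 to 63.6). In siPRDX3 1 it made up 92.0% of 449 reads (89.1 to 94.3). In siPRDX3 2 it made up 100% of 87 reads (95.8 to 100). In siPRDX3 3 it made up 23.5% of 243 reads (18.3 to 29.3).

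All 4 intervals are separate, and the dominant mate changed between libraries of the same group. miR-222-3p outnumbered miR-221-3p 11.5-fold in siPRDX3 1. In siPRDX3 2 the excess was 29-fold with 3 reads standing for the 0 of miR-221-3p and the 87 reads of miR-222-3p taken as exact. By contrast, miR-221-3p outnumbered miR-222-3p 3.26-fold in siPRDX3 3. In siCTL 3 the pair was closest to balance, with a 1.46-fold excess of miR-222-3p. At that balance the 87 miR-222-3p reads of siPRDX3 2 would have come with 59.5 reads of miR-221-3p. With 0.5 read added to each count, siCTL 3 had a log2 ratio of miR-222-3p to miR-221-3p of 0.55, and the siPRDX3 libraries had ratios of 3.50, 7.45 and −1.70. The siPRDX3 mean of 3.09 ± 4.59 (SD, n = 3) lay 2.54 above the single control value. That difference is smaller than the spread among the siPRDX3 libraries, and with 1 control library it has no test.

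**Figure D3:**
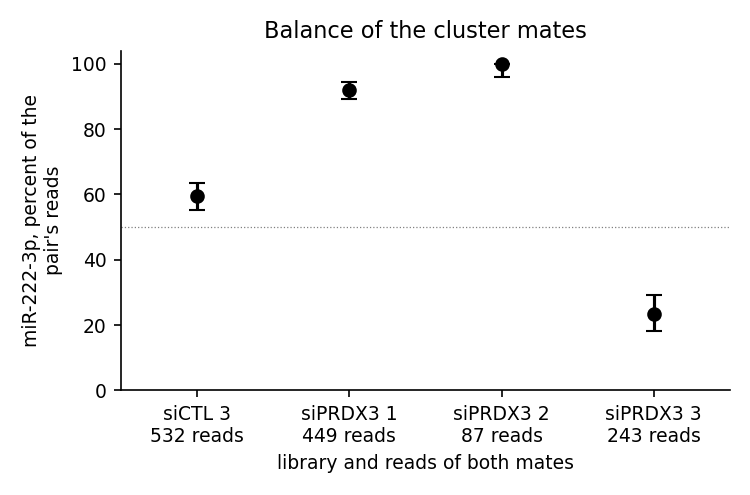
Percent of the pair's reads that belong to miR-222-3p (vertical axis) in the 4 libraries with at least 10 reads of the pair, with exact 95% Clopper-Pearson intervals; the dotted line marks equal numbers. The value runs from 23.5% in siPRDX3 3 to 100% in siPRDX3 2, with siCTL 3 at 59.4% between them.

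siPRDX3 3, in which miR-221-3p led, held most of the reads of some markers of other cell types and of the colon epithelium marker miR-31-5p. The endothelial miR-126-3p had 154 reads there (0.218%) and at most 5 in any other library, with miR-126-5p at 0 throughout. The leukocyte and platelet list had reads for 2 of 5 members. miR-146a-5p had 287 reads in siPRDX3 3 (0.406%) and 0 elsewhere, miR-142-5p had 11 reads in siPRDX3 1, and miR-223-3p, miR-142-3p and miR-150-5p were at 0. Summed over the list, siCTL libraries were at 0% and siPRDX3 libraries between 0% and 0.406%. Of the 3 fibroblast and smooth muscle miRNAs 1 had reads, with 0% to 0.00160% in siCTL and 0% to 0.00707% in siPRDX3, and miR-145-5p and miR-199a-3p were at 0. From the colon epithelium list, miR-31-5p had 131 of its 139 reads in siPRDX3 3 (0.185%). miR-200c-3p, miR-192-5p and miR-215-5p had their most reads in siCTL 3, with 450, 220 and 580, and miR-141-3p and miR-194-5p had at most 5 in any library. The part of the RNAs of all these lists in the balance of the mates was not tested.

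The other strands of the hairpins were nearly missing. The passenger strand of MIR221, miR-221-5p, was read 0, 1 and 3 times in siCTL 1, 2 and 3 and 10, 0 and 0 times in siPRDX3 1, 2 and 3. It made up 1.37% of the hairpin's reads in siCTL 3 (95% Clopper-Pearson interval 0.283 to 3.95) and 21.7% in siPRDX3 1 (10.9 to 36.4). In siPRDX3 3 none of 186 reads were from that strand, which leaves an upper bound of 1.96%. The interval of siPRDX3 1 thus lies above those of siCTL 3 and siPRDX3 3. These intervals treat reads as independent, and whether the 10 reads of siPRDX3 1 are copies of fewer molecules was not tested. As shares of all miRNA reads, miR-221-5p stood at 0.00433% in siPRDX3 1 and 0.00241% in siCTL 3, so most of the shift in balance lay in the number of 3p reads. The single miR-221-5p read in siCTL 2 is the only read of either hairpin there. miR-222-5p had 1 read in all, in siPRDX3 2, against 873 reads of miR-222-3p over the 6 libraries, which is 0.114% of the hairpin's reads (0.00290 to 0.636). No strand of either hairpin had a read in siCTL 1.

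Other neighbouring miRNAs served to show how far ratios moved in these libraries. Among the 80 tested miRNAs, 9 pairs of the same arm lie within 10 kb of each other on the same strand. Over siCTL 3 and the 3 siPRDX3 libraries, the log2 ratio had the smallest SD, 0.27, for let-7a-5p and let-7b-5p, and the largest, 3.96, for miR-221-3p and miR-222-3p. The other 7 pairs lay between 0.47 for miR-182-5p with miR-183-5p and 2.78 for let-7d-5p with let-7f-5p. The order at the top rested on siPRDX3 2, since without it the SD was 2.61 for miR-221-3p with miR-222-3p and 2.60 for let-7a-5p with let-7d-5p. Over every library with at least 10 reads of a pair, the SD was 4.99 for let-7a-5p with miR-100-5p, above that of miR-221-3p with miR-222-3p. The pair of miR-221-3p and miR-222-3p had the fewest reads of the 9, with 87 in siPRDX3 2. Nearly as few, 91 at the lowest, were held by miR-182-5p with miR-183-5p, whose SD was 0.47. let-7a-5p also has several hairpins, so the comparison is a description of these libraries.

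**Figure D4:**
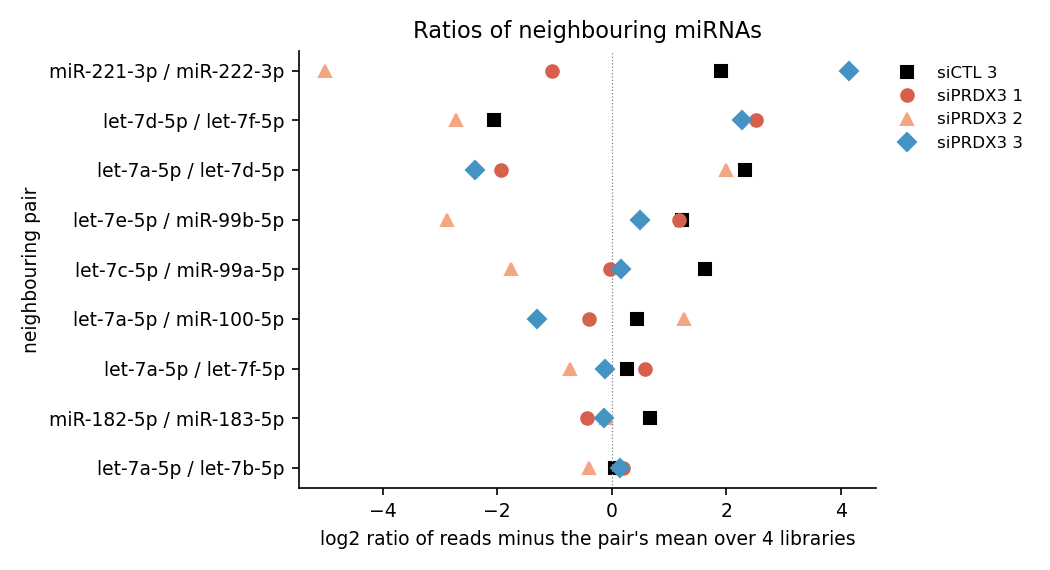
Log2 ratio of reads for the 9 pairs of neighbouring tested miRNAs (vertical axis), as the difference from each pair's mean over siCTL 3, siPRDX3 1, siPRDX3 2 and siPRDX3 3 (horizontal axis, log2; one marker per library). The markers of miR-221-3p and miR-222-3p are spread over 9.15, and those of let-7a-5p and let-7b-5p over 0.59.

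The mates were not each other's closest companions across the libraries. Their log2 levels correlated at Pearson's r of 0.71 over the 6 libraries, which share the 2 empty controls, and at 0.30 over the 4 libraries with reads; with so few points these are descriptions only. Of the other 79 tested miRNAs, 36 had a higher r with miR-222-3p than miR-221-3p had, and 17 had a higher r with miR-221-3p than miR-222-3p had.

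The closest to miR-222-3p were miR-3529-3p (r = 0.999), miR-92b-5p (0.997), miR-25-3p (0.974), miR-4516 (0.973) and miR-3196 (0.972). miR-25-3p, a member of the cluster with miR-93 and miR-106b, was absent from the first 2 controls, with 263 reads in siCTL 3 and 887, 446 and 22 in the siPRDX3 libraries. miR-3529-3p was likewise absent from those 2, with 840 reads in siCTL 3 and 1626, 186 and 172 in the siPRDX3 libraries. Its hairpin lies opposite one of those of miR-7, and without the strand used in counting its reads cannot be told from those of the other strand. All 5 were absent or at no more than 3 reads in siCTL 1 and siCTL 2 and had reads in the other 4 libraries. They were picked by r over these same libraries, so that shared pattern follows from the choice.

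The closest to miR-221-3p were miR-6087 (r = 0.974), miR-200c-3p (0.965), miR-432-5p (0.953), miR-193b-5p (0.944) and miR-375 (0.928). miR-200c-3p, which keeps epithelial cells from expressing the ZEB factors, had 0 reads in siCTL 1 and siCTL 2, 450 in siCTL 3, and 253, 1 and 190 across siPRDX3 1 to 3. miR-432-5p, from the imprinted cluster on chromosome 14, had 0, 0 and 120 reads and then 256, 1 and 300. These 5 were picked by r over the same 6 libraries, so libraries empty in common follow from the choice. In siPRDX3 2, where miR-221-3p had 0 reads, each of the 5 had at most 1 read. In siPRDX3 1, where miR-221-3p had 36 reads, they had between 218 and 1295, so that library is where miR-221-3p stood apart from them.

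**Figure D5:**
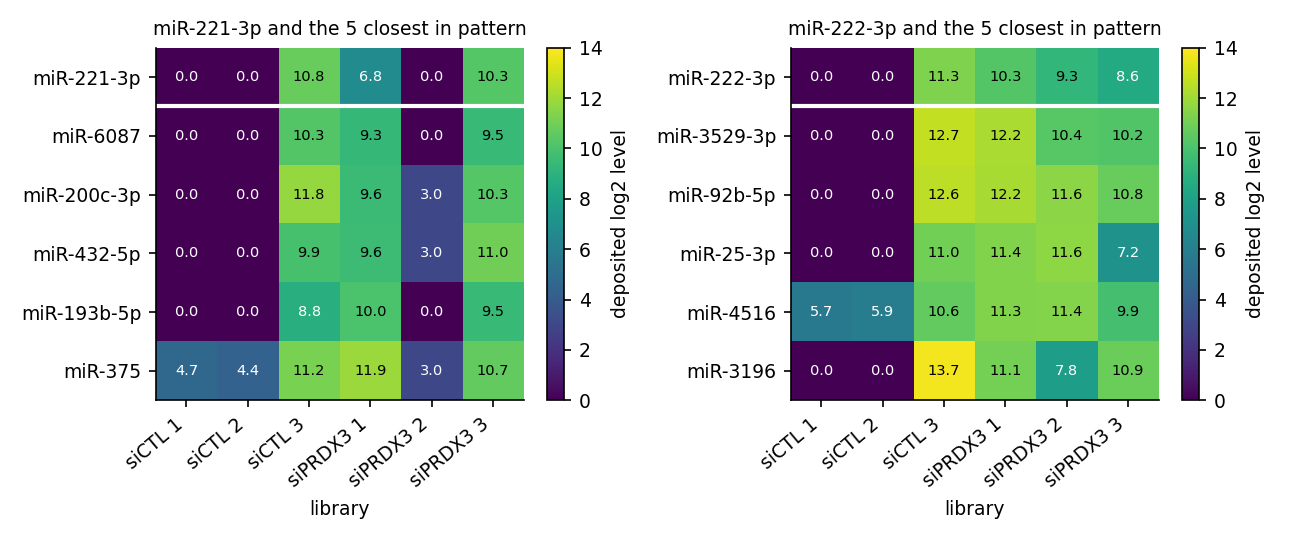
Deposited log2 level (colour and number in each cell) of miR-221-3p (left) and miR-222-3p (right), each in the top row, with the 5 tested miRNAs of highest Pearson's r below, in the 6 libraries (columns). siCTL 1 and siCTL 2 hold at most 3 reads of any miRNA shown, and siPRDX3 2 holds at most 1 read of any in the left panel. A single read is worth 4.70 on this scale in siCTL 1, so such cells are not all near 0 in log2 level.

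The empty controls were common to many miRNAs. Of the 80 tested, 17 had 0 reads in both siCTL 1 and siCTL 2, all 17 had reads in siCTL 3, and 13, with miR-222-3p among them, had reads in the other 4 libraries. The remaining 4 were at 0 in siPRDX3 2 as well: miR-221-3p, miR-6087, miR-193b-5p and miR-28-3p. Of the 17, 8 had their highest log2 level in siCTL 3. A miRNA had to reach the minimum in 3 libraries to be tested, so entries limited to siCTL 1 and siCTL 2 could not enter this count.

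Other miRNAs are described as repressors of the same targets. In at least 1 library, 5 of 6 listed for CDKN1B and 1 of 6 listed for KIT had a read. Over all 2588 entries 686 did, and with 6 entries in each list these counts are descriptions only. Of those listed for CDKN1B, 1 was tested. That was miR-148a-3p, for which the siCTL libraries held 699, 323 and 1471 reads and the siPRDX3 libraries 2985, 908 and 432. In contrast to the mates it was present in every library, with a log2 fold change of −0.999 (SE 0.99; limma adjusted p = 0.590). miR-181a-5p had 672 reads in siCTL 3, 305 in siPRDX3 1 and at most 2 elsewhere, and miR-196a-5p had 302 reads, all in siPRDX3 1. miR-152-3p had 22 reads in siPRDX3 1 and 1 in siPRDX3 2, miR-24-3p had 6 in siCTL 3, and miR-196b-5p had none. Of 6 listed for KIT, miR-34a-5p had 1 read, in siCTL 1, and miR-193a-3p, miR-193b-3p, miR-494-3p, miR-137 and miR-218-5p had 0 in every library. With none of these tested for KIT and 1 for CDKN1B, 0 passed in either direction.

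Where they were present, the mates lay in the upper part of the entries with reads. miR-222-3p ranked 40th of 356 entries with reads in siCTL 3, and 57th of 334, 37th of 215 and 71st of 272 in siPRDX3 1, 2 and 3. miR-221-3p ranked 51st in siCTL 3, 113th in siPRDX3 1 and 39th in siPRDX3 3.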

How the data were processed

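Per the labels' protocols, exosomal RNA was extracted with TRIzol LS and libraries were built with a NEBNext small-RNA kit. Bowtie2 and bedtools 2.25.0 are named in the submitters' processing notes; any build, annotation, strand setting or scaling is not given in the sources used here. In each table the authors deposited 1 log2 value per miRNA entry, of the form log2(x + 1). In every library x came in whole multiples of a step, taken as the worth of a read: 100% of values at or below 100 reads were whole to within 0.1 read. Steps ran from 2.97 in siPRDX3 1 to 25.0 in siCTL 1, and the sums of x from 474714 to 1616280, so x is not plain CPM. Values have 3 decimals, so large recovered counts are approximate.

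The deposited log2 values of the 6 libraries were fitted by limma 3.58.1 (R 4.3.3; mean-variance trend; no covariates). A miRNA was tested where 3 libraries reached 113 CPM (10 reads in a library of median size), with 15 reads in all. P-values were Benjamini-Hochberg adjusted over the 80 tested. Shares were compared by exact permutation. The ratio was planned as a further permutation test, but only 1 control library had enough reads. The fits were tested on simulated data, in which libraries of a group varied less than these libraries do. Named miRNAs are the members, the other strands of their hairpins, listed repressors of CDKN1B and KIT, listed markers, the 5 tested miRNAs of highest Pearson's r with each member, and the neighbouring pairs of smallest and largest SD. Other pairs, miR-28-3p and miR-1260b were named after their values were seen. Members and lists were chosen with earlier results of these data known. Alternatives covered scaling, filter, pseudocount, limma-voom, replicate block and left-out libraries.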

Additional observations from a re-analysis of the deposited data

How the results depend on the processing

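With all 6 libraries, 0 of 80 miRNAs passed by limma (6 at an unadjusted p under 0.05). limma-voom with TMM factors passed 1, miR-1260b, which is not a member (12 unadjusted). Leaving out single libraries passed 0 to 20, and the 20 came without siCTL 3, with 19 of them higher in siPRDX3. The log2 fold change of miR-221-3p ranged from −0.21 (without siPRDX3 3) to 5.68 (without siCTL 3) over left-out libraries and was −5.07 without siCTL 1 and siCTL 2 together. It was 0.59 under limma-voom and 0.65 with a pseudocount of 25. That of miR-222-3p ranged from 3.72 to 9.37, the latter past the threshold, and was −1.93 without those 2 controls. It was 3.51 under limma-voom and 2.56 with a pseudocount of 25. The difference in share of reads, siPRDX3 minus siCTL, ranged over left-out libraries from −0.0499 to 0.0929 percentage points for miR-221-3p, from −0.0102 to 0.116 for miR-222-3p and from −0.00384 to 0.209 for both together. The lowest values came without siPRDX3 3 for miR-221-3p, and without siCTL 1 or siCTL 2 for the other 2 measures. Without miR-4451 in the totals these differences were 0.0829, 0.0688 and 0.152. The log2 ratio difference ranged from 0.35 (without siPRDX3 2) to 4.93 (without siPRDX3 3). It was 2.90 over all 6 libraries, where the empty controls count as equal (exact permutation p = 0.4). The cause of these shifts was not tested. The replicate block left the fold changes at 2.10 and 5.61 (limma adjusted p = 0.759 and 0.466) and passed 0 miRNAs (7 unadjusted). Same-numbered libraries deviated together at r of −0.24, 0.18 and 0.14. siCTL 1 went best with siPRDX3 2 and siCTL 3 with siPRDX3 1, whereas siCTL 2 went best with the same-numbered siPRDX3 2. With 3 libraries in a group and r this weak, whether the numbers pair the libraries cannot be decided. Shallow libraries limit what can be seen of both mates: 3 reads are 0.00747% of siCTL 1.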
